A study of Homo sapiens with 6 samples.

Results

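The TRIM genes encode tripartite motif proteins, most of them ubiquitin ligases. The family was taken as every gene symbol of the deposited table made of TRIM, a number and at most 1 letter, which gave 72 of 26372 genes. The libraries came from BE(2)-M17, an established human neuroblastoma line, and held polyadenylated RNA: 3 libraries with knockdown of the long non-coding RNA GOMAFU (gene symbol MIAT) and 3 control libraries, each numbered 2, 3 and 4. Per the labels' protocols, cells were transfected with 100 pmol of small RNA using a lipid reagent; neither the knockdown sequence nor what the controls received is given in the sources used here. The line is 1 tumour line, and nothing in the labels says that the replicates were separate cultures, so p-values measure the spread between these libraries, which may be technical. Values are FPKM, fragments scaled to gene length and to the mapped total. In bulk RNA, a change in how many cells express a gene and a change in RNA per cell cannot be told apart.

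A typical TRIM protein carries a RING finger, 1 or more B-boxes and a coiled coil, followed by a C-terminal part that sorts the family into classes. Some members, among them TRIM14 and TRIM44, lack the RING finger. The RING finger recruits a ubiquitin-conjugating (E2) enzyme, the coiled coil pairs the chains, and the C-terminal part, often a SPRY domain, binds the target. Many SPRY members act in antiviral defence, several of them being themselves induced by interferon; the PHD-bromodomain members act on chromatin, and the NHL and COS members include proteins of neurons and of the cytoskeleton.

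MIAT, the targeted transcript, was at 1.27, 1.32 and 3.21 FPKM in knockdown replicates 2, 3 and 4, against 5.38, 5.96 and 8.57 FPKM in controls 2, 3 and 4, with no overlap (exact two-sided permutation p = 0.1, the smallest that 3 against 3 allows). Knockdown replicate 4 stood apart: across the 12164 genes that averaged 1 FPKM or more in the 6 libraries, it correlated with the others at r = 0.9404 to 0.9557, and the other 5 with one another at 0.9835 to 0.9966. Of the adrenergic neuroblastoma markers, MYCN was between 1710 and 2169 FPKM and HAND2 between 515 and 606, while TH stayed at or under 0.0872 FPKM in every library. Markers of immune, endothelial, epithelial and fibroblast cells summed to 1.44, 1.22 and 3.46 FPKM in knockdown replicates 2, 3 and 4, against 1.47, 1.22 and 1.19 FPKM in the controls. CD3E and KRT5 of that list were at 0 throughout, and CD68 gave 2.57 FPKM of the sum in knockdown replicate 4. Their part in the results below was not tested.

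In these cells 40 of the 72 genes averaged 1 FPKM or more and entered the test. Of the other 32, 15 were listed at 0 in all 6 libraries, among them TRIM6 and the near-identical TRIM43, TRIM49 and TRIM64 copies, and 17 had some value. The family as a whole came to 728, 704 and 981 FPKM in knockdown replicates 2, 3 and 4, against 694, 690 and 716 FPKM in the controls. TRIM28, a corepressor that works with KRAB zinc finger proteins, made up 26.7%, 28.6% and 20.0% of the family in the knockdown libraries, against 29.8%, 28.6% and 30.4% in the controls. It was followed in each control, and in knockdown replicates 2 and 3, by TRIM67, TRIM8 and TRIM27. In knockdown replicate 4 the order was TRIM28, TRIM25, TRIM67 and TRIM14. The filter lay close to TRIM62, just inside at a mean of 1.01 FPKM, and to TRIM68, just outside at 0.999 FPKM.

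**Figure D1:**
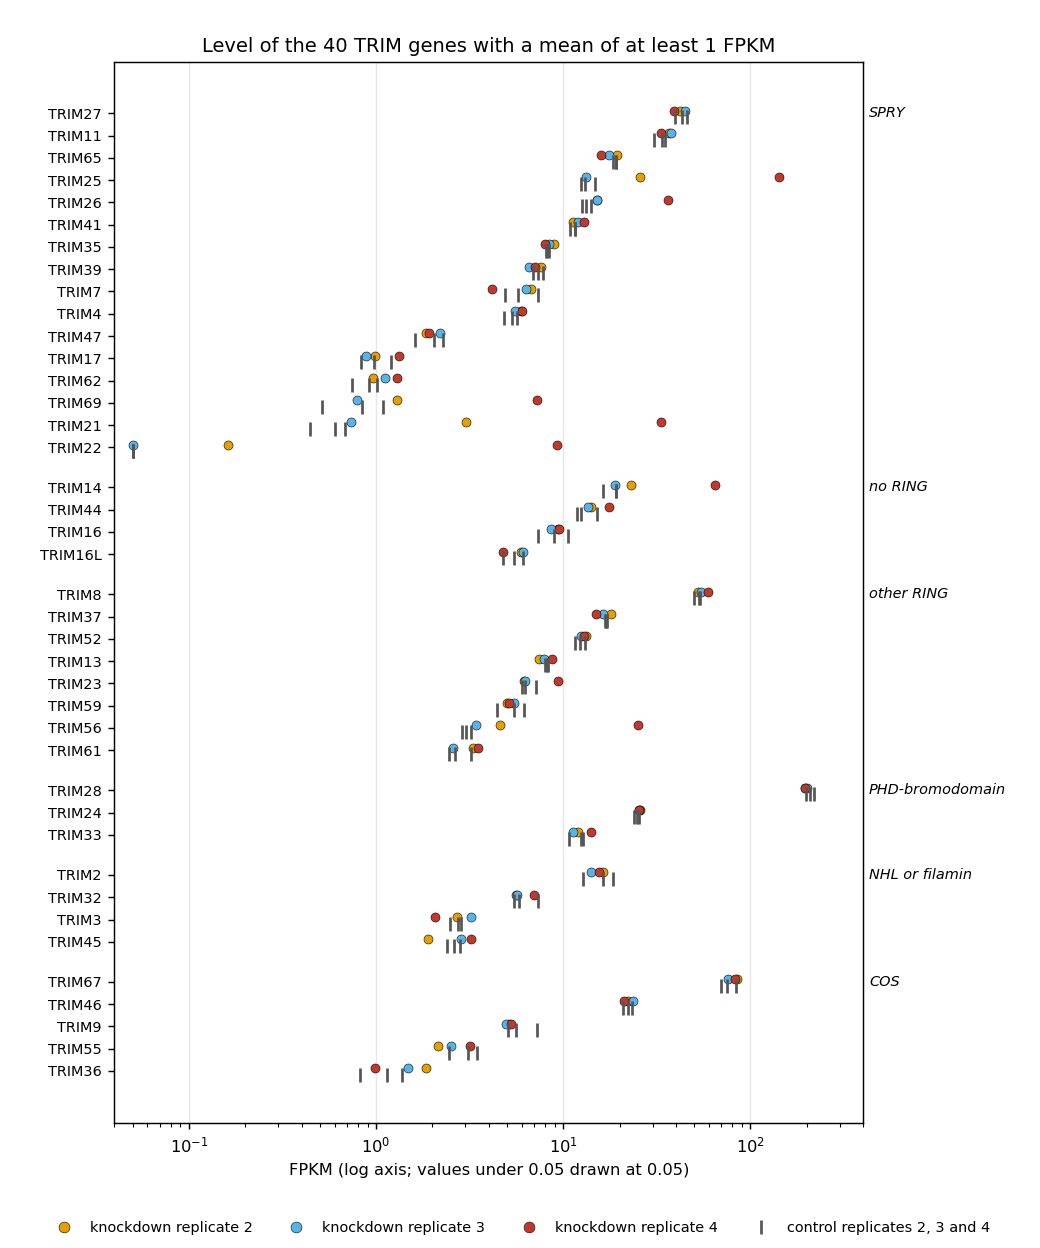
FPKM (log axis) of the 40 TRIM genes tested, 1 row a gene, grouped by domain class. Circles are knockdown replicates 2, 3 and 4 and ticks are the 3 controls; knockdown replicate 4 lies far right of the ticks for TRIM14, TRIM21, TRIM22, TRIM25, TRIM26, TRIM56 and TRIM69, while most other rows lie together.

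By limma, no TRIM gene passed an adjusted p of 0.05 in either direction (0 of 40 each way, against 0% of all 12164 genes each way), and none had an unadjusted p under 0.05 (background 0.97% higher and 1.19% lower). All 40 had an adjusted p of 0.9998. The 3 knockdown values lay above all 3 controls for 4 of the 40, TRIM21, TRIM24, TRIM26 and TRIM56 (10.0%; all genes 4.01%), and below them for 0 of 40 (all genes 4.35%). With control means of at least 1 FPKM it was 3 of 36 higher (all such genes 3.51%). Without knockdown replicate 4 the first count was 7 of 40 (17.5%; all genes 11.1%), adding TRIM11, TRIM35 and TRIM36, and the second was 1 of 40, TRIM13 (2.5%; all genes 11.6%). Without knockdown replicate 2 the counts were 8 higher (all genes 6.67%) and 2 lower (all genes 6.53%), and without knockdown replicate 3 they were 10 higher (all genes 8.67%) and 1 lower (all genes 10.7%). Without control replicate 2, 3 or 4 they were 5, 4 and 9 higher (all genes 6.98%, 6.26% and 8.8%) and 1, 2 and 0 lower (all genes 7.55%, 7.38% and 10.8%). The fitted difference was above 0 for 27 of the 40 (67.5%; all genes 46.7%). The median log2 difference of the 40 was 0.04, against -0.01 for all genes. TRIM21, TRIM22, TRIM62 and TRIM69 had control means under 1 FPKM and passed the filter only with the knockdown values, so counts over the 40 are a description.

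The libraries were therefore also taken singly. Above all 3 controls lay 17, 13 and 19 of the 40 in knockdown replicates 2, 3 and 4 (all genes 23.1%, 22.7% and 30.7%). Below all 3 lay 4, 5 and 8 (all genes 25.9%, 21.2% and 35.9%). The differences used are log2(FPKM + 1) minus the control mean, which understates the change of low genes. In knockdown replicate 4, 7 of 40 TRIM genes lay at least 1 log2 unit above the control mean (17.5%; all genes 2.29%): TRIM14, TRIM21, TRIM22, TRIM25, TRIM26, TRIM56 and TRIM69. All 7 are in the antiviral list, which was drawn up with earlier results of these data known, so this is a description and no independent support. Among genes with a control mean of at least 1 FPKM, which leaves out TRIM21, TRIM22 and TRIM69, it was 4 of 36 (11.1%; all such genes 1.49%), and 0 of 36 in knockdown replicates 2 and 3 (all such genes 0.134% and 0.0167%). In knockdown replicate 2 only TRIM21 reached that size (2.5%; all genes 0.403%), and in knockdown replicate 3 none did (all genes 0.074%). No TRIM gene lay 1 log2 unit below the control mean in knockdown replicate 2, 3 or 4 (all genes 0.0493%, 0.0575% and 0.23%). Since each of these is 1 library, the differences have no replicate check.

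**Figure D2:**
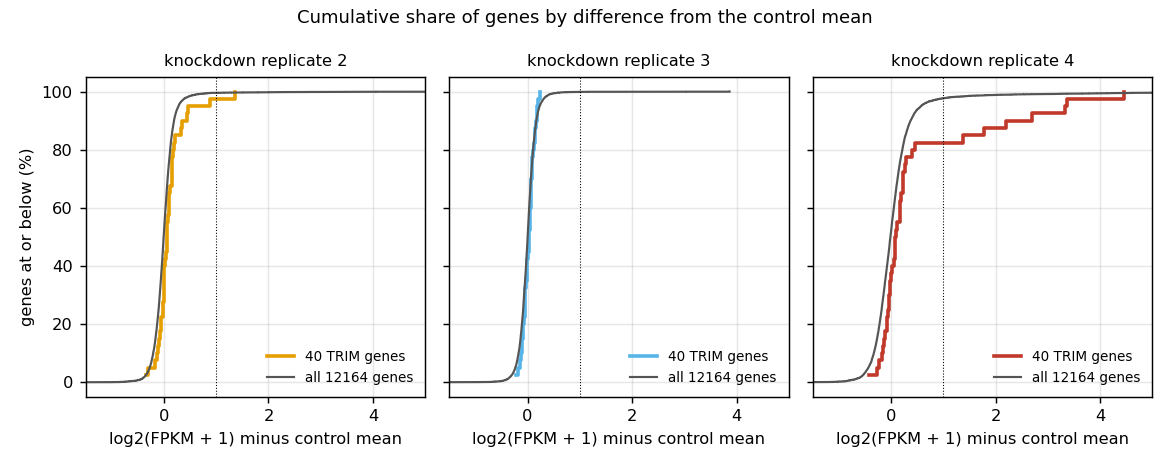
Cumulative share (percent) of genes against log2(FPKM + 1) minus the control mean, in a panel for each knockdown library; the coloured line is the 40 TRIM genes and the grey line all 12164 genes tested, and the dotted line marks 1 log2 unit. In knockdown replicate 4 the TRIM line leaves the grey line at its upper end, with 7 of 40 genes beyond the dotted line.

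The antiviral members come first. The list was TRIM5, TRIM6, TRIM14, TRIM21, TRIM22, TRIM23, TRIM25, TRIM26, TRIM31, TRIM34, TRIM38, TRIM56, TRIM65 and TRIM69. Of these 14, 9 entered the test and the others, TRIM5, TRIM6, TRIM31, TRIM34 and TRIM38, did not.

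TRIM21 is a cytosolic antibody receptor that sends antibody-coated viruses to the proteasome. It was at 3.01, 0.732 and 33.4 FPKM in knockdown replicates 2, 3 and 4, against 0.604, 0.442 and 0.682 FPKM in controls 2, 3 and 4. The groups did not overlap, although knockdown replicate 3 lay just above the highest control, and under quantile normalization they overlapped. Those values were 5.23, 1.27 and 58.1 times the control mean, and the log2 difference was 1.98 (SE 0.98, unadjusted p = 0.0834, limma).

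TRIM25 ubiquitinates the RNA sensor RIG-I and assists the zinc finger antiviral protein. It stood at 25.7, 13.2 and 143 FPKM in the knockdown libraries, against 12.5, 13.0 and 14.8 FPKM in the controls. Knockdown replicates 2 and 4 were above every control and replicate 3 was among them. The ratios to the control mean were 1.91, 0.987 and 10.6, and the log2 difference was 1.40 (SE 0.76, unadjusted p = 0.109, limma). TRIM25 held 14.6% of the family's FPKM in knockdown replicate 4, against 1.80% to 2.06% in the controls.

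TRIM22, an interferon-induced ligase reported to restrict several viruses, was at 0.163, 0 and 9.26 FPKM in the knockdown libraries and was listed at 0 in all 3 controls. No ratio is given against 0. The log2 difference was 1.19 (SE 0.84, unadjusted p = 0.197, limma) and rests on knockdown replicate 4.

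TRIM56, a ligase reported to promote STING and TLR3 signalling, was at 4.58, 3.40 and 25.1 FPKM in the knockdown libraries, against 2.88, 3.22 and 3.03 FPKM in the controls, with no overlap. The log2 difference was 1.10 (SE 0.62, unadjusted p = 0.119, limma). TRIM26, which has been linked to the turnover of nuclear IRF3, was at 15.1, 15.1 and 36.1 FPKM, against 14.1, 13.2 and 12.6 FPKM in the controls, again with no overlap. Its difference was 0.58 (SE 0.31, unadjusted p = 0.108, limma), and its ratios were 1.13, 1.14 and 2.72, so that knockdown replicates 2 and 3 were alike.

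TRIM14 lacks a RING finger and is known as an adaptor at the mitochondrial protein MAVS. It was at 22.9, 18.8 and 64.8 FPKM in the knockdown libraries, against 19.1, 19.2 and 16.2 FPKM in the controls, with knockdown replicate 3 inside the control range. The log2 difference was 0.72 (SE 0.42, unadjusted p = 0.13, limma). TRIM69, reported to act against vesicular stomatitis virus, was at 1.29, 0.789 and 7.25 FPKM, against 0.839, 0.517 and 1.09 FPKM in the controls, and knockdown replicate 3 again lay among the controls. Its log2 difference was 0.85 (SE 0.54, unadjusted p = 0.162, limma).

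Knockdown replicate 4 decided the size of these differences. Without it the log2 difference was 0.75 for TRIM21 (SE 0.32), 0.44 for TRIM25 (SE 0.24), 0.30 for TRIM56 (SE 0.13) and 0.18 for TRIM14 (SE 0.11). It was 0.17 for TRIM26 (SE 0.079), 0.17 for TRIM69 (SE 0.19) and 0.11 for TRIM22 (SE 0.17). The direction was kept in all 7, but for TRIM22, listed at 0 in every control, it could not turn. For TRIM25 and TRIM69 it rested on knockdown replicate 2, since replicate 3 lay at -0.014 and -0.0086 log2 units from the control mean. None passed the threshold, and 2 knockdown libraries remained in that comparison.

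TRIM23 and TRIM65 stood nearer to the controls. TRIM23, which also carries an ADP-ribosylation factor domain, was at 6.20, 6.27 and 9.32 FPKM in the knockdown libraries, against 6.04, 6.27 and 7.16 FPKM in the controls; only knockdown replicate 4 was above them. Its log2 difference was 0.12 (SE 0.16), and -0.048 without that library. TRIM65, which ubiquitinates the RNA sensor MDA5, was at 19.3, 17.5 and 15.9 FPKM, against 19.2, 19.1 and 18.5 FPKM in the controls, so knockdown replicates 3 and 4 were below all of them. The log2 difference was -0.11 (SE 0.09, unadjusted p = 0.257, limma).

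Of the antiviral members under the filter, TRIM5, the retroviral capsid restriction factor, was at 0.617, 0.411 and 4.14 FPKM in the knockdown libraries, against 0.269, 0.254 and 0.0606 FPKM in the controls. All 3 knockdown values were higher, with replicate 4 the highest. TRIM34 was at 0, 0 and 0.555 FPKM, against 0.0794, 0 and 0 FPKM in the controls. TRIM38 reached at most 0.119 FPKM, in knockdown replicate 4. TRIM6 and TRIM31 were listed at 0 throughout.

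**Figure D3:**
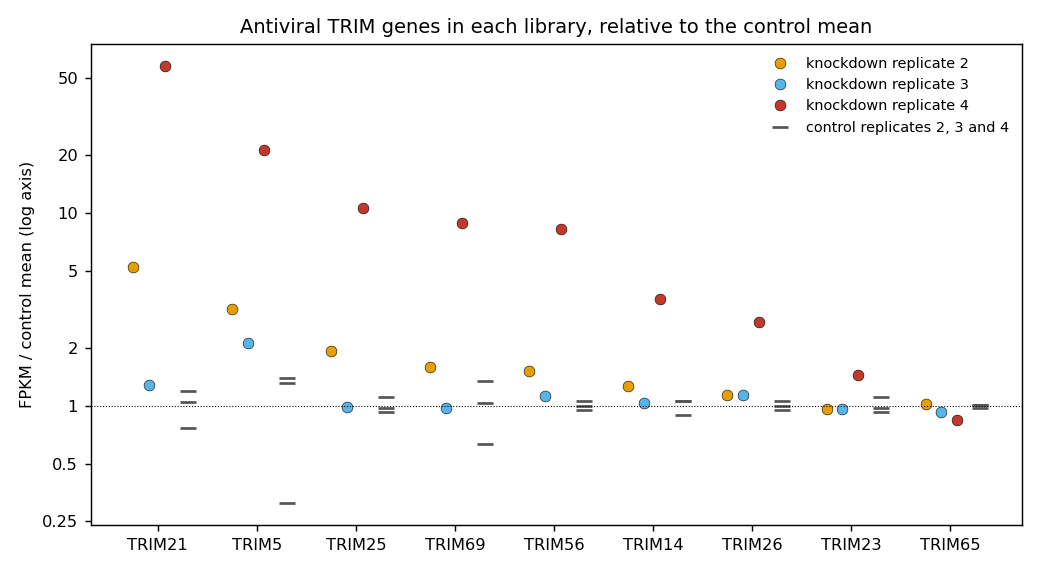
FPKM of antiviral TRIM genes divided by their control mean (log axis), in knockdown replicates 2, 3 and 4 (circles, left to right) and in the 3 controls (dashes). TRIM21 reaches 58.1, TRIM5 21.3 and TRIM25 10.6 in knockdown replicate 4, and TRIM65 lies under 1 there. TRIM5 was under the filter, with a low control mean of 0.194 FPKM. TRIM22, TRIM6, TRIM31, TRIM34 and TRIM38 are left out because their controls are at or near 0.

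Genes of the interferon response were also high in knockdown replicate 4. Of 14 tested, 9 had control means under 1 FPKM and entered only with the knockdown values, as did 3 of the 9 antiviral TRIM genes, so medians are given without these. In knockdown replicates 2, 3 and 4 the median of the other 5 interferon genes exceeded the control mean by 2.02, 0.40 and 5.06 log2 units, beside 0.25, 0.02 and 1.58 for the 6 antiviral TRIM genes and -0.0072, 0.00075 and -0.02 for all 11984 such genes. None of the 14 passed the threshold (0% of all genes), and 4 of the 5 lay above the controls without overlap (all such genes 3.51%). IRF9, a DNA-binding factor of the interferon response, was at 35.3, 10.3 and 113 FPKM in the knockdown libraries, against 7.37, 6.06 and 5.12 FPKM in the controls. Knockdown replicate 4 was highest and replicate 3 nearest to the controls, the order also seen for TRIM21, TRIM25, TRIM56, TRIM14, TRIM69 and TRIM5. Residual MIAT was highest in that same replicate 4. The part of either in the TRIM values was not tested.

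Promoter sequences were read for the interferon-stimulated response element, a site bound by complexes that contain IRF9. The motif searched was GAAA, any 2 bases (NN), then GAAA, on both strands, from 250 bases before to 50 after the RefSeq gene starts available here (GRCh38.p14). It occurred in 13.3% of 75 windows of TRIM genes, against 3.57% of all 35116 windows. These windows do not stand for 1 gene each. Some members, such as TRIM2, had more than 1 window. Others, among them TRIM8, TRIM22, TRIM24, TRIM27 and TRIM28, had none, so the share does not cover the whole family. Of the 7 TRIM genes past 1 log2 unit in knockdown replicate 4, TRIM14, TRIM21, TRIM26 and TRIM69 held it. TRIM25 and TRIM56 had no match in this window, and TRIM22 had no window and was not searched. Below are 30-base stretches on the strand of the gene, with the match in capitals; TRIM21 and TRIM26 each hold 2 overlapping matches, drawn as 1 run. The 6 shown are the antiviral members that held a match; TRIM5 and TRIM34 were under the filter, and TRIM34 reached only 0.555 FPKM.
TRIM21: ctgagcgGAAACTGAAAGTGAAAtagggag
TRIM26: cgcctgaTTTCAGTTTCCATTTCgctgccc
TRIM14: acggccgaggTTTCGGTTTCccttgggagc
TRIM69: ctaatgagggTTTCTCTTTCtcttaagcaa
TRIM5: atagtttatcTTTCACTTTCctgccctgag
TRIM34: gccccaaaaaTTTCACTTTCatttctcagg

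The stretch of TRIM21 is chr11:4393663-4393692 (minus strand), with the match from 18 to 33 bases after the start. That of TRIM26 is chr6:30213578-30213607 (minus strand), that of TRIM14 chr9:98119229-98119258 (minus strand) and that of TRIM69 chr15:44736456-44736485 (plus strand). That of TRIM5 is chr11:5685082-5685111 (minus strand) and that of TRIM34 chr11:5624901-5624930 (plus strand). The same motif stood in the windows of TRIM2, TRIM16 and TRIM44, shown next for comparison, whose values overlapped with the controls, and in that of TRIM64C, which was listed at 0 in all 6 libraries. A match describes the letters only.
TRIM2: aataaatagaGAAAAGGAAAtaagccgaag
TRIM16: acagaggtaaGAAATAGAAAtaaagggtcc
TRIM44: tcctgacgggGAAAGGGAAAgtggaaccgg

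These lie at chr4:153151936-153151965 (plus strand), chr17:15683012-15683041 (minus strand) and chr11:35662730-35662759 (plus strand). TRIM2 was at 16.3, 14.1 and 15.6 FPKM in the knockdown libraries, against 12.7, 16.3 and 18.4 FPKM in the controls. TRIM16 was at 9.31, 8.64 and 9.44 FPKM, against 10.6, 8.91 and 7.36 FPKM. TRIM44, a RING-less member, was at 14.0, 13.5 and 17.6 FPKM, against 11.8, 12.5 and 15.1 FPKM, with a log2 difference of 0.18 (SE 0.13). The groups overlapped for all 3.

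Neighbouring TRIM genes did not share 1 pattern. On the short arm of chromosome 11 (GRCh38, GENCODE), TRIM6 (5596109 to 5612958), TRIM34 (5619764 to 5644398), TRIM5 (5663557 to 5938619) and TRIM22 (5689689 to 5737089) lie together, TRIM22 within the annotated span of TRIM5 on the opposite strand. TRIM34, TRIM5 and TRIM22 had their highest value in knockdown replicate 4, while TRIM6 was listed at 0. TRIM21 (4384897 to 4393696) and TRIM68 (4598672 to 4608259) lie on the same arm, and TRIM68 was at 0.835, 0.910 and 1.11 FPKM in the knockdown libraries, against 0.982, 1.09 and 1.07 FPKM in the controls. On chromosome 6, TRIM26 (30184455 to 30213427) lies beside TRIM39 (30326479 to 30343729), which was at 7.60, 6.59 and 7.09 FPKM, against 7.80, 7.30 and 6.85 FPKM in the controls. TRIM10, TRIM15, TRIM31 and TRIM40 of the same stretch did not exceed 0.0386 FPKM. The table does not say how reads shared by overlapping genes were assigned.

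The chromatin members TRIM28, TRIM24 and TRIM33 differed little between libraries. TRIM28, on chromosome 19 (58544091 to 58550722), was at 195, 201 and 196 FPKM in the knockdown libraries, against 207, 197 and 218 FPKM in the controls, and control replicate 3 lay within the knockdown range. The log2 difference was -0.07 (SE 0.07). TRIM24, a nuclear receptor cofactor that reads histone H3, was at 25.7, 25.5 and 25.5 FPKM, against 23.8, 25.3 and 24.9 FPKM. Its groups did not overlap, with 25.6 ± 0.13 FPKM in knockdown and 24.7 ± 0.76 FPKM in control libraries (mean ± SD, n = 3 each), a log2 difference of 0.05 (SE 0.06), but they overlapped under upper-quartile scaling. TRIM33, which ubiquitinates SMAD4, was at 12.0, 11.2 and 14.1 FPKM, against 10.7, 12.5 and 12.7 FPKM. TRIM66 stayed under the filter, at 0.532 to 0.673 FPKM in the knockdown libraries and 0.559 to 0.622 FPKM in the controls. Of 10 partners of the TRIM28 corepressor, among them the histone methyltransferase SETDB1 and the heterochromatin proteins CBX1, CBX3 and CBX5, none passed the threshold (0% of all genes), and the median difference was -0.02 (all genes -0.01). SETDB1 was at 26.4, 25.5 and 35.3 FPKM, against 26.0, 27.7 and 32.9 FPKM in the controls.

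Among the TRIM genes known from neurons, TRIM67, a brain-enriched regulator of axon branching, was the second gene of the family at 85.1, 75.6 and 82.6 FPKM in the knockdown libraries, against 69.8, 74.9 and 84.0 FPKM in the controls. The groups overlapped (log2 difference 0.09, SE 0.09). TRIM46, which bundles microtubules at the start of the axon, was at 22.0, 23.6 and 21.2 FPKM, against 22.1, 21.0 and 23.2 FPKM. TRIM9, which shares the domain order of TRIM67 and acts in netrin-dependent axon branching, was at 5.13, 4.93 and 5.29 FPKM, against 5.04, 5.56 and 7.23 FPKM. It had the smallest p of the members fitted below 0 (log2 difference -0.17, SE 0.13, unadjusted p = 0.218, limma), and control replicate 4 was its only distant value.

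TRIM2 has been given above; TRIM3, a kinesin-associated ligase, was at 2.71, 3.21 and 2.06 FPKM in the knockdown libraries, against 2.75, 2.47 and 2.83 FPKM in the controls. TRIM32, mutated in a muscular dystrophy and studied in neural progenitors, was at 5.61, 5.66 and 7.00 FPKM, against 5.79, 5.46 and 7.28 FPKM. TRIM36 was at 1.85, 1.48 and 0.984 FPKM, against 1.14, 1.37 and 0.822 FPKM. In knockdown replicate 2 it had the largest difference of the 33 members tested outside the 7 named antiviral genes, at 0.44 log2 units. TRIM71, the stem-cell NHL protein, was at 0.598, 0.174 and 0.282 FPKM, against 0.215, 0.214 and 0.352 FPKM, under the filter. Of 7 neuronal members tested, 3 were fitted above 0 and 4 below (all genes 46.7% above), and the median difference was -0.01, as over all genes.

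As for every TRIM gene tested, no difference among the remaining members exceeded the spread between libraries by the test. TRIM8, a regulator of cytokine signalling, was at 52.3, 54.6 and 59.6 FPKM in the knockdown libraries, against 53.2, 53.4 and 50.2 FPKM in the controls. TRIM27 was at 42.2, 44.9 and 39.1 FPKM, against 46.0, 42.9 and 39.4 FPKM. TRIM11 was at 36.7, 37.7 and 33.3 FPKM, against 35.1, 33.6 and 30.4 FPKM, with a log2 difference of 0.12 (SE 0.09). TRIM37, a centrosome regulator, was at 17.9, 16.4 and 14.9 FPKM, against 16.9, 17.2 and 16.7 FPKM, and its log2 difference was -0.05 (SE 0.08). TRIM4 was at 5.92, 5.50 and 6.04 FPKM, against 4.79, 5.32 and 5.64 FPKM, with a difference of 0.13 (SE 0.09). Of the muscle members TRIM55 alone entered the test, at 2.15, 2.52 and 3.19 FPKM, against 3.11, 3.46 and 2.46 FPKM (log2 difference -0.15, SE 0.15). Over the 33 members outside the 7, the differences ran from -0.34 to 0.44, from -0.21 to 0.24 and from -0.42 to 0.46 log2 units in knockdown replicates 2, 3 and 4, with medians of 0.03, 0.03 and 0.05.

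Genes that work with the family were read from lists. PML, a family member under another name that builds nuclear bodies, was at 19.5, 11.8 and 111 FPKM in the knockdown libraries, against 12.0, 10.2 and 12.2 FPKM in the controls, with replicate 3 within the control range. Its log2 difference was 1.32 (SE 0.73, unadjusted p = 0.113, limma). MID1, a microtubule-bound relative, was at 2.48, 2.21 and 1.49 FPKM, against 2.09, 2.34 and 2.25 FPKM. In the RIG-I axis of TRIM25, DDX58, which encodes RIG-I itself, was at 6.80, 1.27 and 122 FPKM, against 0.827, 0.960 and 0.649 FPKM, and ZC3HAV1, the zinc finger antiviral protein, at 14.3, 9.81 and 31.6 FPKM, against 9.40, 9.72 and 9.30 FPKM. Neither overlapped with the controls, which made 2 of the 5 genes tested in this axis (all genes 4.01%), and none of the 5 passed the threshold. DDX58 had a control mean of 0.812 FPKM and passed the filter only with the knockdown values. ZC3HAV1 in knockdown replicate 3 lay just above its highest control. MAVS, the adaptor below RIG-I, was at 15.0, 13.5 and 14.4 FPKM, against 13.8, 14.0 and 14.3 FPKM. RNF135, a TRIM25-related ligase also reported to act on RIG-I, did not exceed 0.0668 FPKM.

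Of 13 genes for E2 enzymes and their partners, reported to serve TRIM ligases, none passed the threshold (0% of all genes). In this list 3 were fitted above 0 and 10 below (all genes 46.7% above), and the median difference was -0.05 (all genes -0.01). UBE2L6, the E2 of the interferon-induced modifier ISG15, was at 5.21, 2.47 and 234 FPKM in the knockdown libraries, against 2.26, 2.56 and 3.71 FPKM in the controls, and was highest in knockdown replicate 4. UBE2W, which attaches the first ubiquitin to TRIM21, was at 5.93, 5.60 and 5.71 FPKM, against 4.83, 5.44 and 4.91 FPKM, without overlap (log2 difference 0.16, SE 0.08, unadjusted p = 0.102, limma). In the list, 1 of 13 lay higher without overlap and 0 lower (all genes 4.01% and 4.35%). UBE2N, which extends chains linked through lysine, was at 55.7, 60.2 and 48.7 FPKM, against 59.9, 59.8 and 51.2 FPKM.

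**Figure D4:**
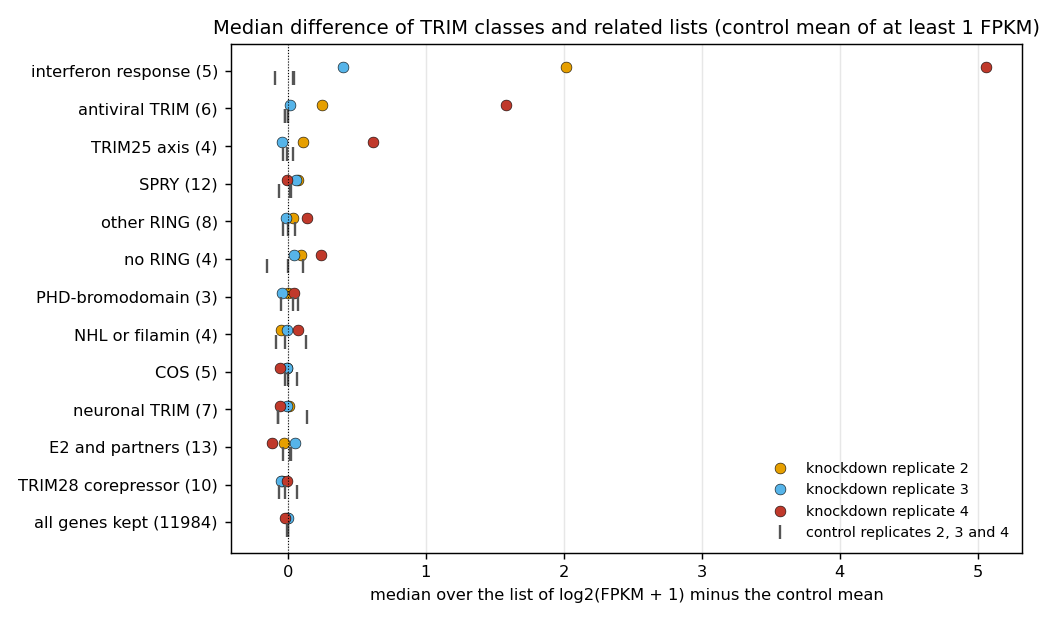
Median over each list of log2(FPKM + 1) minus the control mean, over genes with a control mean of at least 1 FPKM, their number in parentheses; circles are knockdown replicates 2, 3 and 4 and ticks the 3 controls. The interferon response list reaches 5.06 and the antiviral TRIM list 1.58 in knockdown replicate 4. The SPRY (-0.0038), COS, NHL and PHD-bromodomain classes stay near 0 there. The classes labelled other RING and no RING are at 0.14 and 0.24.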

How the data were processed

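The authors deposited FPKM values, 1 column per library; the submitters' processing notes name TopHat2, Cuffdiff and hg38, without versions, and the gene annotation used is not stated. Since FPKM are no counts, count tests were not applied. Read depth is unknown, but steps between low values put the libraries at 0.966 to 1.37 times the depth of control replicate 3. The 12164 genes averaging 1 FPKM or more were compared as log2(FPKM + 1) with limma 3.58.1 in R 4.3.3 (intensity trend, two-sided, knockdown minus control, Benjamini-Hochberg over all genes), after a check on simulated data. Single-library counts and medians carry no test. The members and lists were chosen with earlier results of these data known. All kept members could be named; values in each library were given for antiviral, neuronal and PHD-bromodomain members and for the smallest p-values in each direction, and TRIM4, TRIM8, TRIM11, TRIM16, TRIM27, TRIM39, TRIM44, TRIM52, MID1 and the E2, RIG-I axis and corepressor genes were added after their values were seen. Coordinates are from GENCODE 29, and promoters from RefSeq (GRCh38.p14). Alternatives were other pseudocounts, filters, scalings, eBayes settings, library weights, a replicate block, and leaving out libraries. Whether strand was kept is not stated. Values of a few listed genes are not reported here.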

Additional observations from a re-analysis of the deposited data

How the results depend on the processing

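No TRIM gene passed the threshold in either direction under any of the 17 alternatives run. Over all genes, library weights gave 9 higher and 13 lower, and leaving out both libraries numbered 4 gave 1 lower; the weights, 7.98 for control replicate 3 and 0.153 for knockdown replicate 4, had not fully converged. TRIM genes without overlap numbered 4 higher and 0 lower; leaving out 1 library gave 4 to 10 higher and 0 to 2 lower, leaving out both numbered 4 gave 12 higher and 2 lower (all genes 17% and 19.3%), and quantile normalization gave 4 higher and 1 lower, TRIM9 (all genes 3.19% and 5.56%). Under that normalization TRIM21 and TRIM24 overlapped and TRIM4 and TRIM8 did not. Leaving out control replicate 4 gave 9 higher, knockdown replicate 2 gave 8, knockdown replicate 3 gave 10 and knockdown replicate 4 gave 7. The log2 difference of TRIM23 was -0.048 without knockdown replicate 4 and ranged up to 0.21 without another library. That of TRIM37 was 0.031 with library weights and 0.0073 without both numbered 4, and ran from -0.11 without knockdown replicate 2 to 0.016 without knockdown replicate 4; the cause was not tested. With the replicate number as a block, 0 TRIM genes passed; counts without overlap do not depend on the fit. The numbers are not shown to pair the libraries: deviations of same-numbered libraries correlated at 0.09, 0.17 and 0.32, and knockdown replicates 2 and 3 correlated best with controls of another number. FPKM gives no read depth, so values near 0 carry no counting limit here.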

Other observations

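Transcripts that carry a TRIM name but fall outside the family rule were read from the same table. TRIM52-AS1, named as antisense to TRIM52, lies beside it on the other strand without overlap in GENCODE. It was at 12.0, 15.5 and 10.2 FPKM in the knockdown libraries, against 12.1, 12.7 and 13.9 FPKM in the controls. TRIM52 itself was at 13.2, 12.5 and 13.0 FPKM, against 11.5, 12.3 and 13.0 FPKM. The readthrough transcript TRIM39-RPP21 did not exceed 0.613 FPKM, and TRIM6-TRIM34 was listed at 0. Exons of TRIM25 overlap those of 4 annotated genes, among them DGKE on the other strand, and exons of TRIM14 overlap those of NANS, also on the other strand. DGKE was at 1.24, 1.19 and 0.789 FPKM in the knockdown libraries, against 1.08, 1.13 and 0.981 FPKM in the controls, and NANS at 42.9, 46.3 and 33.2 FPKM, against 48.8, 46.9 and 38.2 FPKM.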
